A study of Homo sapiens with 14 samples.

Results

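NOS3, DDAH1, DDAH2, EDN1, ECE1 and ACE are genes of the nitric oxide and endothelin systems, through which endothelial cells widen or narrow a vessel. They were taken as the rows of these 6 names in the authors' deposited tables, 1 for siRNA against CALCRL and 1 for deletion of an enhancer of CALCRL. Of the 6, 5 had a row in both tables, which list 11261 genes for siRNA and 11835 for the deletion. ACE, the angiotensin-converting enzyme, had no row in the tables used here and was not analysed here. CALCRL encodes the calcitonin receptor-like receptor, through which adrenomedullin acts.

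All 14 libraries came from teloHAEC, a line of immortalised human aortic endothelial cells. In the siRNA comparison, 4 libraries of cells reverse transfected with CALCRL siRNA were set against 4 given scrambled siRNA, with cells lysed 24 hours later. In the deletion comparison, 3 libraries of cells electroporated with HiFi Cas9 and guides flanking the enhancer were set against 3 given a control guide against HPRT, with RNA taken 2 days later. The deletion libraries were made from electroporated cells, and the labels give neither a clone nor the share of cells edited. No library was untransfected. Nothing in the labels says whether libraries of a group came from separate cultures, so p-values measure the spread between these libraries, which may be technical. The kit used, QuantSeq 3' FWD, reads the polyadenylated end of transcripts.

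Nitric oxide is made from arginine by endothelial nitric oxide synthase, the product of NOS3, which needs the cofactor tetrahydrobiopterin. The synthase is inhibited by asymmetric dimethylarginine, an arginine analogue released from methylated proteins, and the DDAH enzymes break that inhibitor down. Endothelin-1 is a strong constrictor peptide: EDN1 encodes its precursor, and endothelin-converting enzyme 1, the product of ECE1, makes the final cut to the active peptide.

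Neither table gives values per library, so the spread between libraries is given by the deposited standard error (SE) of each log2 fold change. Log2 fold changes are treated over control, genes with an adjusted p-value (adjusted p) under 0.05 are counted as called, and levels are given as mean normalised counts. The target CALCRL was at 34.0% of the control under siRNA (95% interval 27.1% to 42.7%) and at 36.2% after the deletion (20.2% to 64.7%), from the authors' deposited tables. With a trend on GC content removed, CALCRL after the deletion was at a log2 fold change of -1.07 (adjusted p 0.0753). Of 10 endothelial marker genes, 9 had a row in both tables, PECAM1 being the exception. A row was found for 3 of 6 smooth muscle markers (ACTA2, SMTN, TAGLN) and 1 of 6 fibroblast markers (FAP). The same held for 1 of 5 leukocyte markers (CD68) and 2 of 4 epithelial markers (KRT8, KRT18). Rows were missing for MYH11, CNN1 and DES of smooth muscle and for PDGFRA, COL1A1, COL1A2, DCN and LUM of fibroblasts. They were also missing for PTPRC, LYZ, CD14 and CD3E of leukocytes, and for EPCAM and CDH1 of epithelial cells. FAP had a mean of 71.4 normalised counts for siRNA and 82.4 for the deletion, and CD68 had 41.2 and 12.3. The summed endothelial marker level was 6257 normalised counts with scrambled siRNA and 6249 with CALCRL siRNA, but 5937 with the control guide and 3990 after the deletion. The authors' deposited table gave HPRT1, against which the control was directed, a log2 fold change of -0.09 (SE 0.50) for deletion over control. The summed smooth muscle markers went from 832 to 847 and from 506 to 578, and the epithelial ones from 2510 to 2116 and from 1992 to 4298. In the deletion comparison the endothelial markers CDH5 (log2 fold change -1.44, adjusted p 0.00142) and KDR (-1.05, 0.00966) fell, and the keratin gene KRT18 rose (1.13, 0.00425), by the authors' deposited table. No other endothelial marker passed the threshold there, and their signs were mixed. ESAM (-0.74), TEK (-0.49), ERG (-0.47) and EMCN (-0.01) lay below 0, and VWF (0.54), CLDN5 (0.45) and TIE1 (0.09) above. In bulk libraries, fewer cells of a type and less RNA per cell cannot be told apart. The part of these marker changes in the results on the deletion was not tested.

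DDAH1 and EDN1 fell under CALCRL siRNA, while DDAH1 and ECE1 rose after the enhancer deletion. NOS3 and DDAH2 did not pass the threshold in either comparison. Among all genes, 3.46% were called in the siRNA table, 1.05% higher and 2.42% lower, and 15.8% in the deletion table, 7.4% higher and 8.44% lower. The count of 2 called of 5 in each comparison is read against those shares, and nothing is called particular to these genes from it. The median log2 fold change of the 5 was -0.01 under siRNA and -0.12 after the deletion, against 0.00 for all genes in both tables. With the statistics referred to Student's t, 0 of the 4 calls passed (adjusted p from 0.357 to 0.491). With statistics divided by their robust SD, the siRNA call of DDAH1 alone did. Over all genes, 5 calls for siRNA and 0 for the deletion remained with Student's t, and 262 and 0 with the robust SD.

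**Figure D1:**
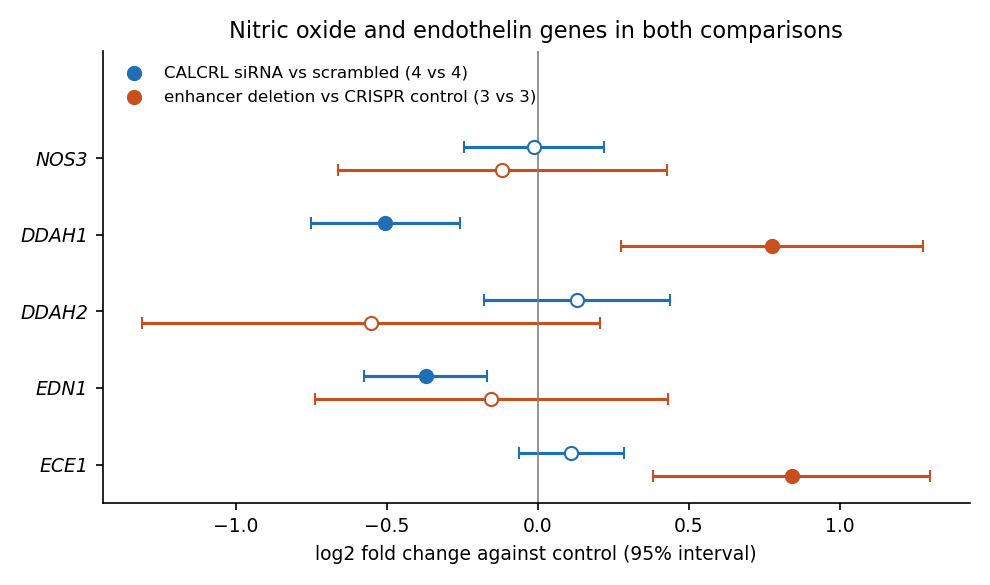
Log2 fold change against control (horizontal axis) of the 5 genes with a row, for siRNA (blue) and enhancer deletion (orange). Bars are 95% intervals from the deposited standard errors, and filled points passed an adjusted p-value of 0.05: DDAH1 and EDN1 lie below 0 for siRNA, DDAH1 and ECE1 above 0 for the deletion.

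The promoters of the 3 called genes are shown because EDN1 and DDAH1 fell together under siRNA, and DDAH1 and ECE1 rose together after the deletion. They run from 250 bases before to 50 bases after the RefSeq start site (GRCh38.p14) nearest to the principal GENCODE transcript, which the 3' reads do not identify as the start used in these cells. Both strands were searched for TGACGTCA, the cyclic AMP response element, its part TGACG, the AP-1 word TGANTCA, the GATA factor word AGATAA and the shear stress word GAGACC. Capitals mark every match, read as GGTCTC or TTATCT where it lies on the other strand. The windows are chr6:12290111-12290410 (plus strand) for EDN1, chr1:85465110-85465409 (minus strand) for DDAH1 and chr1:21290414-21290713 (minus strand) for ECE1.
EDN1: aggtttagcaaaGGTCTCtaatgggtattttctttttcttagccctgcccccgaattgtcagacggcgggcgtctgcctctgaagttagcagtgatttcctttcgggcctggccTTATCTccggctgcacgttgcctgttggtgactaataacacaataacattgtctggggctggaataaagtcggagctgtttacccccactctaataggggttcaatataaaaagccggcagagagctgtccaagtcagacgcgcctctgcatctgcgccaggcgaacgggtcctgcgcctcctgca
DDAH1: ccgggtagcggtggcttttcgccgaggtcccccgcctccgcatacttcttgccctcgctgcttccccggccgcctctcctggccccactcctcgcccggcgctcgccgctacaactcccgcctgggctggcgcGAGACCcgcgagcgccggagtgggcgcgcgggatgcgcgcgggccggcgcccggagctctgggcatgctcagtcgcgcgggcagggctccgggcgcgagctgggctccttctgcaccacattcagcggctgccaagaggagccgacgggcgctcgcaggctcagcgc
ECE1: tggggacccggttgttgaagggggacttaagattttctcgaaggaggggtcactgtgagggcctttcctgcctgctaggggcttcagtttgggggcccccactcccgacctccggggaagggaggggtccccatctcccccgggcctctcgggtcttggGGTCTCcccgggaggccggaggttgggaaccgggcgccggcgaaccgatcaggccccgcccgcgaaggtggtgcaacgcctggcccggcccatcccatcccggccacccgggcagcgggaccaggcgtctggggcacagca
All 3 windows hold GAGACC once, starting 238 bases before the start site in EDN1, 117 in DDAH1 and 91 in ECE1. Over the 35116 promoter windows of the table, 15.9% hold it. AGATAA was matched in EDN1 alone, 136 bases before the start, against 10.3% of windows. TGACGTCA, TGACG and TGANTCA, found in 1.85%, 24.6% and 7.71% of windows, were not matched in these 3 windows. The search took exact words only, so sites that differ by a base were missed and their absence is not shown. Other RefSeq windows of the same genes gave TGACG in 1 of 3 for EDN1 and 1 of 3 for DDAH1, and TGANTCA in 1 of 3 for DDAH1. The windows chosen for NOS3 and DDAH2 hold none of the words. Over all RefSeq windows of each gene, GAGACC was in 1 of 3 for EDN1, 1 of 3 for DDAH1, 2 of 4 for ECE1, 1 of 3 for DDAH2 and 0 of 2 for NOS3, so its presence depends on the window chosen and does not separate called from uncalled genes. GC content was 52.7% in the EDN1 window, 75.3% in that of DDAH1 and 70.3% in that of ECE1.

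NOS3 (ENSG00000164867) encodes the endothelial nitric oxide synthase and spans bases 150990995 to 151014588 of chromosome 7, plus strand (GENCODE 29, GRCh38). From the authors' deposited tables, its log2 fold change was -0.01 (SE 0.12, adjusted p 0.993) for siRNA and -0.12 (SE 0.28, adjusted p 0.819) for the deletion. The implied group means were 401 normalised counts with scrambled siRNA and 398 with CALCRL siRNA, and 450 with the control guide and 415 after the deletion. The 95% interval placed NOS3 between 84.4% and 116% of the control under siRNA, and between 63.1% and 135% after the deletion. The siRNA interval is the narrower one, and the deletion data would not resolve changes in NOS3 within their wider interval. ATG9B, which had no row, overlaps the 3' end of NOS3 on the opposite strand over 2380 bases, and the use of strand in counting is not given in the sources used here, so the reads of NOS3 are uncertain to that extent.

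DDAH1 (ENSG00000153904) encodes dimethylarginine dimethylaminohydrolase 1, which hydrolyses the synthase inhibitor, and spans bases 85318481 to 85578363 of chromosome 1, minus strand. Under siRNA it fell to 70.5% of the control (95% interval 59.4% to 83.6%), with a log2 fold change of -0.51 (SE 0.13, adjusted p 0.00354) in the authors' deposited table. After the deletion it rose to 171% of the control (121% to 242%), with a log2 fold change of 0.78 (SE 0.26, adjusted p 0.0231) in the authors' deposited table. The implied group means went from 669 to 472 normalised counts under siRNA and from 367 to 628 after the deletion, so the changes were opposite. A Wald statistic as low was found in 159 genes of the siRNA table, and one as high in 515 genes of the deletion table, DDAH1 included. DDAH1 was 1 of 13 genes, among 10891 tested in both tables, that were called lower for siRNA but higher for the deletion. Only 47 genes were called in both, 23 in opposite directions and 24 in the same. An opposite call was thus not unusual among them, and nothing particular to DDAH1 is read from it. The difference, siRNA minus deletion, was -1.28 (SE 0.29, 95% interval -1.84 to -0.72, adjusted p 0.000621 by a normal test of the deposited values). The antisense locus AL078459.1, with no row, spans the 3' end of DDAH1, which leaves the same doubt over strand.

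The 3' UTR of DDAH1 holds 1 copy of GTAACAA, a word of 7 bases that an earlier analysis of these tables picked because it was frequent in genes lower under siRNA. It is shown because DDAH1 was the single one of the 5 genes to hold it. The copy is at base 2095 of a 3' UTR of 2971 bases (transcript of GENCODE 29 with the longest 3' UTR), at chr1:85319351-85319357 on the minus strand (GRCh38), printed with 8 bases on each side and the word in capitals.
DDAH1: ttttctttGTAACAAtttgttct
Over genes of the siRNA table with an annotated 3' UTR, 10.7% (1136 of 10637) hold the word, and 56.4% (150 of 266) of those called lower. Genes with it had a median siRNA log2 fold change of -0.12 and genes without it 0.01. Because the word was picked from these same values, these figures give no separate evidence. A match is a description, and its part in the fall of DDAH1 was not tested. EDN1, the other gene of the 5 that fell, holds no copy.

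DDAH2 (ENSG00000213722), the second gene for an enzyme of that family, spans bases 31727038 to 31730617 of chromosome 6, minus strand. Its log2 fold changes in the authors' deposited tables were 0.13 (SE 0.16, adjusted p 0.889) for siRNA and -0.55 (SE 0.39, adjusted p 0.344) for the deletion. The implied group means were 168 and 184 normalised counts under siRNA, and 149 and 101 after the deletion. In each comparison the estimate had the opposite sign to that of DDAH1, but neither passed the threshold, and the intervals (88.3% to 136% and 40.3% to 115% of the control) include no change. The difference between the comparisons was 0.68 (SE 0.42, adjusted p 0.273).

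**Figure D2:**
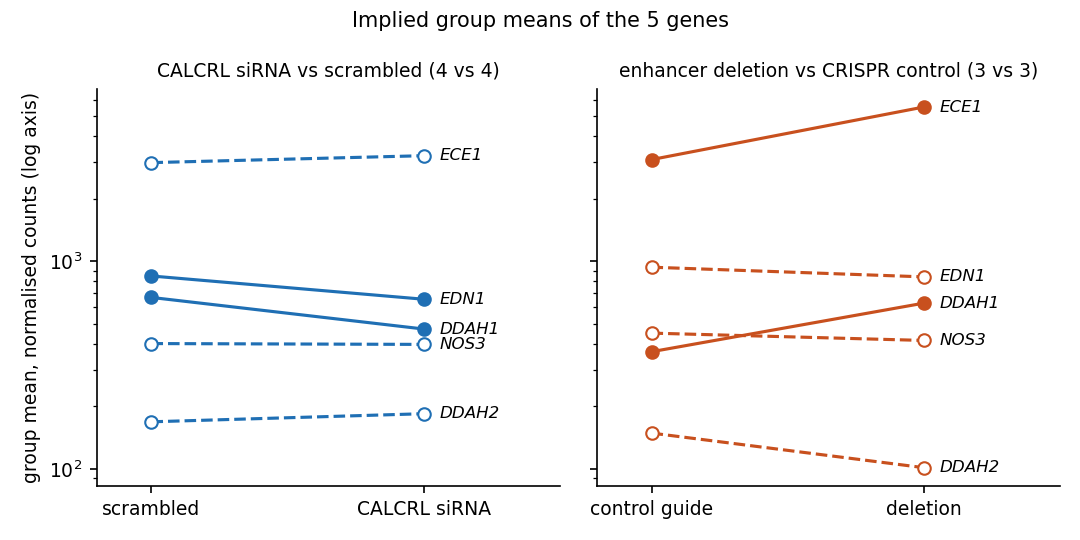
Group means in normalised counts on a log axis, implied by the deposited mean and fold change, for control (left of each panel) and treated cells (right), with no error shown; solid lines are genes past the threshold. DDAH1 goes from 669 to 472 in the siRNA panel and from 367 to 628 in the deletion panel, while NOS3 goes from 401 to 398 and from 450 to 415. The panels come from separate comparisons, so levels are not compared between them.

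EDN1 (ENSG00000078401), the gene of the endothelin-1 precursor, spans bases 12290363 to 12297194 of chromosome 6, plus strand. Under siRNA it fell to 77.3% of the control (95% interval 67.1% to 89.0%), with a log2 fold change of -0.37 (SE 0.10, adjusted p 0.0151) in the authors' deposited table. The implied group means were 849 normalised counts with scrambled siRNA and 656 with CALCRL siRNA. A Wald statistic as low was found in 205 of the 11261 genes, EDN1 included. For the deletion the authors' deposited table gave EDN1 a log2 fold change of -0.15 (SE 0.30, adjusted p 0.771), with implied means of 936 and 841. Its interval of 59.9% to 135% of the control includes the whole siRNA interval, and the SE was 1.25 times that of genes with a like mean count. The difference of -0.22 (95% interval -0.84 to 0.40, adjusted p 0.692) did not pass the threshold, so EDN1 was not shown to respond differently in the comparisons. The sign of the deletion estimate turned, to 0.08, when a trend on GC content was removed.

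ECE1 (ENSG00000117298), the gene of the converting enzyme, spans bases 21217247 to 21345572 of chromosome 1, minus strand. After the deletion it rose to 179% of the control (95% interval 130% to 246%), with a log2 fold change of 0.84 (SE 0.23, adjusted p 0.00653) in the authors' deposited table. The implied group means were 3087 normalised counts with the control guide and 5531 after the deletion. A Wald statistic as high was found in 189 of the 11830 genes tested. Under siRNA the log2 fold change of ECE1 was 0.11 (SE 0.09, adjusted p 0.742) in the authors' deposited table, with means of 2985.5 and 3224 and an interval from 95.8% to 122% of the control. The difference of -0.73 (SE 0.25, 95% interval -1.22 to -0.24) had an adjusted p of 0.0327. EDN1 and ECE1 passed the threshold in different comparisons. Over all 10891 genes tested in both tables, 47 were called in both, so nothing is read from this lack of overlap.

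The call of ECE1 was lost when a trend on GC content was removed. The last 500 bases of its transcript are 60.6% G or C, at percentile 94.1 of the deletion table, where log2 fold changes rose with GC content. At that GC content the trend over all genes was 0.54, and with it removed ECE1 was at 0.30 (adjusted p 0.423) and its difference between the comparisons at -0.21 (0.640). DDAH1 has 35.0% and sits where the trend was -0.22, so its deletion change became 0.99 (adjusted p 0.00325). DDAH2, at 57.2%, went to -0.98 (adjusted p 0.0709). In the siRNA table the trend at the 5 genes lay between -0.02 and 0.02. GC content was read from the transcript with the longest annotated 3' UTR, of 14 exons for NOS3. The 3' reads were not shown to come from that end.

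**Figure D3:**
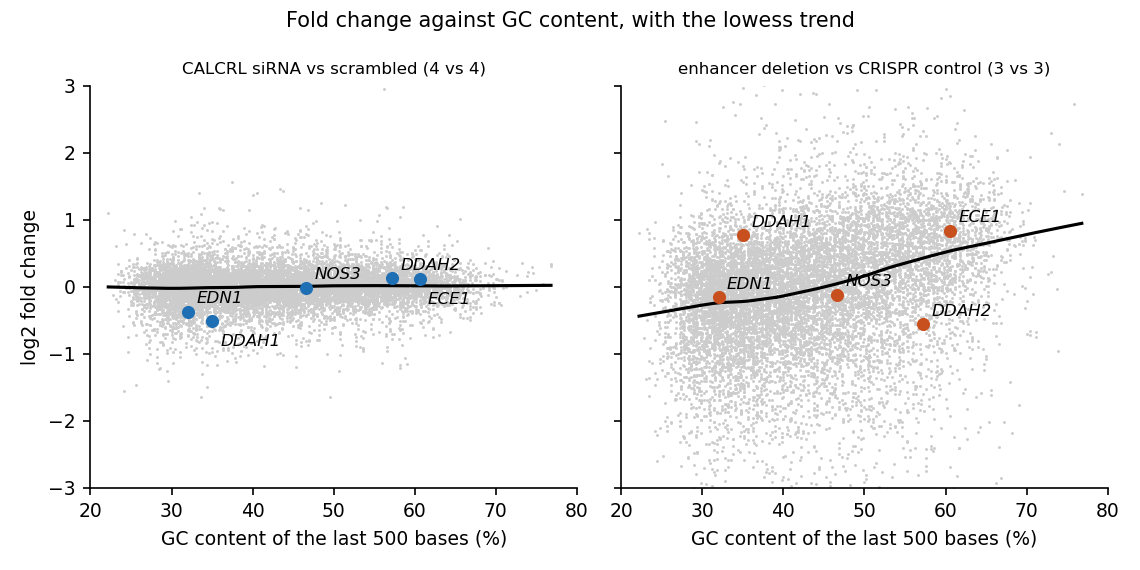
Log2 fold change against GC content of the last 500 bases of the transcript (percent), for siRNA (left) and deletion (right); grey points are genes, the black line is the lowess trend, coloured points are the 5 genes. The trend is flat for siRNA and rises for the deletion, where ECE1 lies 0.30 and DDAH1 0.99 above it; 202 of 11630 genes lie beyond the right panel's axes.

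Between the comparisons, 2 of the 5 genes differed, DDAH1 and ECE1, both with siRNA below deletion. Over the 10891 genes tested in both, 13.7% differed, 6.49% with siRNA below deletion and 7.22% with siRNA above. The 23 lowest Wald statistics of the difference included that of DDAH1, whereas 527 genes had one as low as that of ECE1. Neither difference passed with a Student t reference (adjusted p 0.100 for DDAH1 and 0.142 for ECE1) or with the robust SD (0.992 for both). With either setting, 0 of the 10891 genes passed, so the loss is not particular to DDAH1 or ECE1. The comparisons share no library, but they also differ in delivery, time and control, which cannot be told apart from the target of the treatment.

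**Figure D4:**
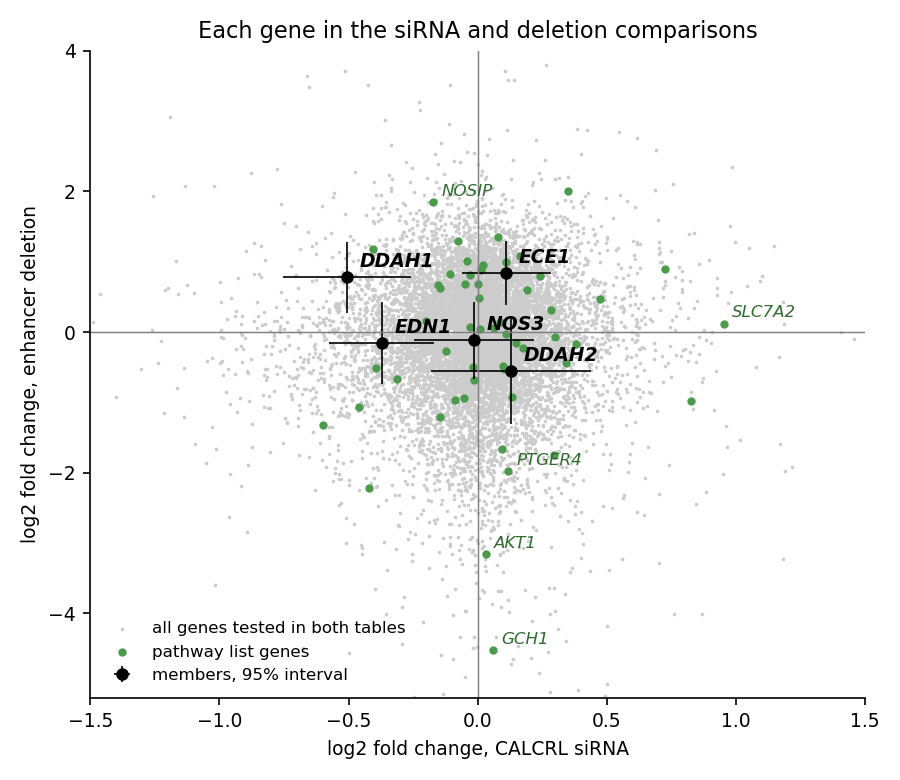
Log2 fold change after enhancer deletion (vertical axis) against that under CALCRL siRNA (horizontal axis), with grey for all 10891 genes tested in both tables (24 lie beyond the axes), green for pathway genes and black for the 5 genes with 95% intervals. DDAH1 stands at the upper left, at -0.51 and 0.78, ECE1 above 0 on the vertical axis alone, and NOS3 near the crossing of the zero lines; the fitted value of GCH1 rests on a deletion mean under 3 normalised counts.

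Around these genes, 89 further vasoactive genes in 6 lists were examined, of which 59 had a row in at least 1 table. Under siRNA 5 of 56 tested were called (8.93%, against 3.46% of all genes), 3 higher and 2 lower, and after the deletion 15 of 57 (26.3%, against 15.8% of all genes), 8 higher and 7 lower. The median log2 fold changes were 0.05 and 0.04, near the all-gene median of 0.00. With a Student t reference 0 were called in either comparison, with 9 and 14 at an unadjusted p-value under 0.05. With the robust SD 3 and 0 were called. Over all genes, the calls left were 5 and 0 with the Student t reference, and 262 and 0 with the robust SD. Of the 20 called genes, 0 were called in both comparisons, against 47 of all 10891 genes tested in both, a share so low that nothing is read from the 0. The difference between the comparisons passed the threshold for 9 of 54 genes (16.7%, against 13.7% of all). In NOSIP, HSP90AA1, CARM1 and THOP1 siRNA lay below deletion, as in DDAH1 and ECE1, and in GCH1, PTS, AKT1, PREP and PTGER4 it lay above.

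The list for nitric oxide synthesis, arginine and cofactor supply had 2 of 10 tested genes called under siRNA, both higher, and 3 of 10 after the deletion, 1 higher and 2 lower. SLC7A2, a transporter of arginine and other cationic amino acids, rose under siRNA to 194% of the control, at 0.95 (SE 0.16, adjusted p 2.59e-07) in the authors' deposited table. QDPR, which regenerates tetrahydrobiopterin, rose under siRNA by 0.48 (SE 0.10, adjusted p 0.000322), and for the deletion it was at 0.47 (SE 0.24, adjusted p 0.157), in the authors' deposited tables. Both enzymes at the start of tetrahydrobiopterin synthesis fell after the deletion. GCH1, the rate-limiting GTP cyclohydrolase, had an implied deletion mean of 1.89 normalised counts, under 3, so no fold is given. The upper end of its 95% interval was 21.3% of the control, and the authors' deposited table gave an adjusted p of 0.00318. PTS, the next enzyme, was at -1.66 (SE 0.52, adjusted p 0.0159) in the authors' deposited table. ASL, argininosuccinate lyase of arginine synthesis, rose by 1.36 (SE 0.46, adjusted p 0.0267) after the deletion in the authors' deposited table, and with the GC trend removed was at 1.15 (0.0718). Under siRNA, GCH1 (0.06, SE 0.25), PTS (0.10, SE 0.37) and ASL (0.08, SE 0.17) did not pass the threshold in the authors' deposited table, the SE of PTS being 2.39 times that of genes with a like mean count.

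The list of NOS3 partners and methylarginine formation had 1 of 16 genes called under siRNA and 6 of 16 after the deletion, 4 higher and 2 lower. CALM3, a calmodulin gene, rose under siRNA by 0.30 (SE 0.08, adjusted p 0.0101) in the authors' deposited table. After the deletion NOSIP, a protein that binds the synthase, rose to 360% of the control, at 1.85 (SE 0.45, adjusted p 0.00139) in the authors' deposited table. HSP90AA1, a chaperone gene of the HSP90 family that assists the synthase, rose by 0.67 (SE 0.23, adjusted p 0.0299) there, and was at 0.62 (0.0568) with the GC trend removed. The kinase gene AKT1, whose product phosphorylates the synthase, was at 11.2% of the control after the deletion (-3.16, SE 0.61, adjusted p 3.18e-05) in the authors' deposited table. Under siRNA AKT1 was at 0.03 (SE 0.54), with an SE 4.40 times that of genes with a like mean count. Of the protein arginine methyltransferases, which form the methylated arginine that DDAH enzymes later clear, PRMT1 (1.08, SE 0.33, adjusted p 0.0140) and CARM1 (0.89, SE 0.28, adjusted p 0.0158) rose after the deletion, by the authors' deposited table. PRMT3 fell there by 2.22 (SE 0.78, adjusted p 0.0354). None of these 3 remained past the threshold once the GC trend was removed (adjusted p 0.155, 0.438 and 0.0873).

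Downstream of nitric oxide, the cyclic GMP list had 0 of 6 genes called under siRNA, with 1 at an unadjusted p-value under 0.05, by the DESeq2 test of the authors' deposited table, and 2 of 7 after the deletion. PRKG1, the cyclic GMP-dependent protein kinase, fell after the deletion by 1.21 (SE 0.37, adjusted p 0.0142), and PDE2A, a phosphodiesterase, rose by 0.79 (SE 0.24, adjusted p 0.0146), in the authors' deposited table. With the GC trend removed their adjusted p was 0.0538 and 0.193. In the endothelin list, 4 genes were tested beside EDN1 and ECE1 and 0 were called in either comparison, with 1 at an unadjusted p-value under 0.05 for siRNA and 0 for the deletion by the same DESeq2 test. The gene of this list with the lowest adjusted p-value was FURIN, a protease that trims the endothelin precursor, at 0.29 (SE 0.11, adjusted p 0.182) for siRNA and 0.32 (SE 0.22, adjusted p 0.332) for the deletion in the authors' deposited tables.

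The renin, angiotensin and kinin list had 1 of 11 genes called under siRNA and 3 of 11 after the deletion. NLN, the peptidase neurolysin, fell under siRNA by 0.39 (SE 0.12, adjusted p 0.0246) in the authors' deposited table, and its 3' UTR holds GTAACAA at bases 4229 and 5476. After the deletion, the peptidase genes THOP1 (0.83, SE 0.26, adjusted p 0.0191) and CTSA (0.95, SE 0.35, adjusted p 0.0462) rose and PREP (-1.75, SE 0.56, adjusted p 0.0199) fell, in the authors' deposited table. With the GC trend removed, THOP1 and CTSA no longer passed the threshold (adjusted p 0.617 and 0.348). Of 9 prostanoid genes, 1 was called in each comparison, both lower. PTGS2, the inducible cyclooxygenase, fell under siRNA to 72.7% of the control (-0.46, SE 0.15, adjusted p 0.0457), and for the deletion it was at -1.07 (SE 0.46, adjusted p 0.0882), in the authors' deposited tables. Its siRNA adjusted p was 0.0619 with the GC trend removed. PTGER4, a prostaglandin E2 receptor, fell after the deletion to 25.3% of the control (-1.98, SE 0.44, adjusted p 0.000478) in the authors' deposited table.

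**Figure D5:**
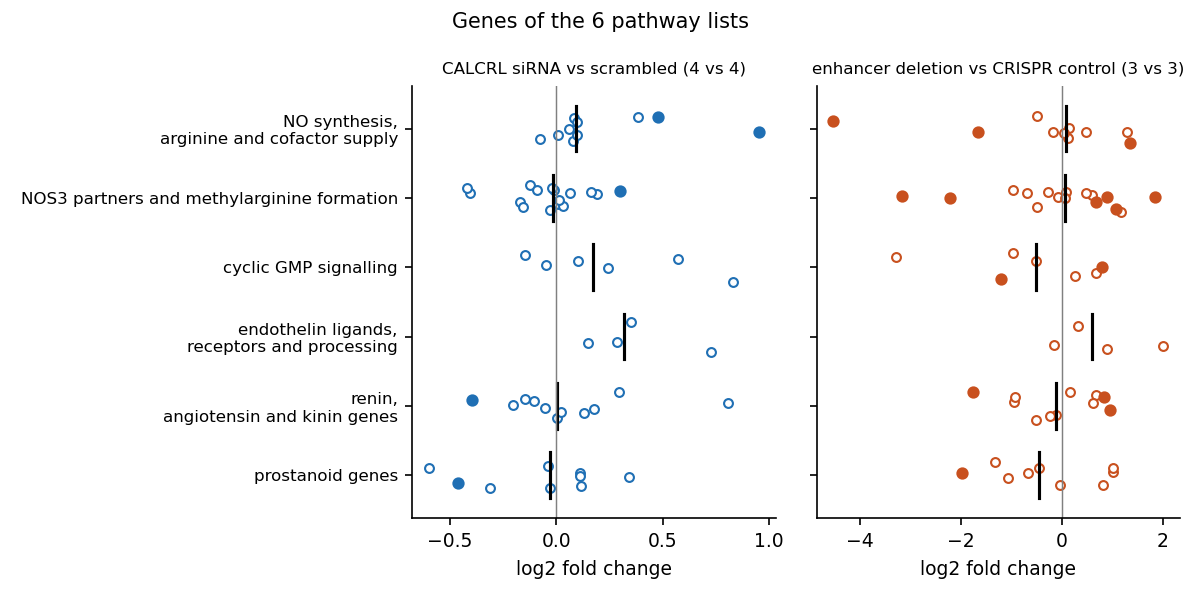
Log2 fold changes (horizontal axes, of different range in the panels) of the genes of each list for siRNA (left) and deletion (right); filled points passed an adjusted p-value of 0.05, bars are list medians and vertical scatter has no meaning. Filled points number 5 on the left and 15 on the right, and lie on both sides of 0; GCH1, the leftmost point, has a fitted value from a deletion mean under 3 normalised counts.

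Over the 50 pathway genes at 10 normalised counts or more in both tables, the pair of log2 fold changes nearest to that of DDAH1 was that of HSP90AA1, at a distance of 0.37. ECE1 lay nearest to CARM1 (0.11), NOS3 to PTGES3 (0.15), DDAH2 to VASP (0.04) and EDN1 to CAV1 (0.27). The second nearest were PRCP for DDAH1 (0.39), PDE2A for ECE1 (0.14), SPR for DDAH2 (0.08) and LNPEP for EDN1 (0.35). These distances rest on 2 comparisons only and describe the estimates, not their errors.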

How the data were processed

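Values came from 2 tables of the authors' own comparisons, 1 per treatment. The authors used featureCounts for counting, per the file names, and DESeq2 for testing, per the file headers. Deposited values per gene are the mean normalised count (a signal), log2 fold change, its standard error, Wald score and p-values, raw and adjusted. The submitters' processing notes name hg19 and edgeR 3.24.3, with no role. Aligner, annotation and filters are not given in the sources used here. Values are written with decimal commas. Deposited statistics equalled log2 fold change over standard error, and adjusted p-values a Benjamini-Hochberg adjustment over listed rows. Depth per library is unknown; mean normalised counts summed to 4547165 (siRNA) and 5153709 (deletion), and 5 deletion rows had no p-value.

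Computed here were 95% intervals, implied group means (equal group sizes), the difference between comparisons (summed squared standard errors, normal reference, adjusted over 10891 genes), and the SE of each gene over the median SE of the 200 genes nearest in mean count. The 5 alternatives were a Student t reference (6 and 4 degrees of freedom, 10 for the difference), division by the robust SD of the statistics, median centring, a minimum mean of 10, and removal of a lowess trend (span 0.3, statsmodels 0.14.6) on GC content, known for 98.6% and 98.3% of rows. Gene positions and 3' UTRs came from GENCODE 29 (GRCh38), matched by gene ID. Scripts used Python 3.11.15 and were tested on simulated data. Named genes were the 6 of the rule, CALCRL, HPRT1, every called pathway gene up to 25, and in lists with none called the gene of lowest adjusted p-value, with the 2 pathway genes nearest to each of the 5 by distance between fold change pairs, of which 1 is not reported here. The genes, lists and tests were chosen with earlier results of these data known.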

Additional observations from a re-analysis of the deposited data

Results flagged for a closer look

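The effects on DDAH1 differed between siRNA and enhancer deletion by -1.28 (SE 0.29, adjusted p 0.000621 by the normal test of the difference over all genes), with a fall under siRNA and a rise after the deletion. The adjusted p over the alternatives ranged from 4.84e-05 to 0.992. With the Student t reference or the robust SD, 0 of 10891 genes passed for the difference.

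The effects on ECE1 differed by -0.73 (SE 0.25, adjusted p 0.0327 by the same test), with the gene higher after the deletion. Its adjusted p-value over the alternatives ranged from 0.0317 to 0.992, and with the GC trend removed the difference was -0.21. Over all genes 13.7% were past the same threshold, and 0 genes were with the Student t reference or the robust SD.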

How the results depend on the processing

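No paired analysis was possible because neither table gives values per library, and leaving out a replicate was not possible for the same reason. Median centring and the minimum mean count changed no direction or call among the 20 results examined. Under a Student t reference no gene of the 5 was past the threshold: adjusted p-values were 0.401 for DDAH1 (-0.51) and 0.491 for EDN1 (-0.37) under siRNA, 0.357 for both DDAH1 (0.78) and ECE1 (0.84) after the deletion, and 0.100 and 0.142 for the differences of DDAH1 (-1.28) and ECE1 (-0.73). All counts of called members, differing members and pathway genes then went to 0, with 2 members in each comparison, 2 differences, and 9 and 14 pathway genes at an unadjusted p-value under 0.05; over all genes 5 and 0 were called. With statistics divided by their robust SD, 1 member was called under siRNA, EDN1 (-0.37) being at 0.0530, and 0 after the deletion, where DDAH1 (0.78) and ECE1 (0.84) were at 0.976. The differences of DDAH1 (-1.28) and ECE1 (-0.73) were then at 0.992, leaving 0. Pathway genes called were 3 for siRNA and 0 for the deletion, with 4 at an unadjusted p-value under 0.05 for the deletion. Over all genes, the division by the robust SD left 262 calls for siRNA and 0 for the deletion. For the difference, 0 of 10891 genes passed under it or under the Student t reference. With the GC trend removed, ECE1 was at 0.30 after the deletion and its difference at -0.21, both short of the threshold, EDN1 turned to 0.082 after the deletion, and 1 member was called after the deletion, 1 differed and 9 pathway genes were called. Over all genes in the deletion table, that removal moved the calls from 875 higher and 999 lower to 617 higher and 823 lower. The cause of these changes was not tested, apart from what the construction of each alternative shows. The deletion comparison, with a median SE of 0.41 against 0.17 for siRNA, resolves only larger changes.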

Other observations

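Several genes through which these signals act had no row in the tables used here and were not analysed here, 30 of the 89 listed. Among them were the soluble guanylate cyclase genes GUCY1A1, GUCY1A2 and GUCY1B1, the receptors of nitric oxide, the endothelin A receptor EDNRA, the angiotensin receptors AGTR1 and AGTR2, and PTGIS, the prostacyclin synthase. EDNRB, the endothelin receptor of endothelial cells, had a mean of only 7.67 normalised counts in the authors' deposited siRNA table and 17.4 in the authors' deposited deletion table. Its log2 fold changes in the authors' deposited tables, 0.73 (SE 0.72) and 0.89 (SE 1.18), had 95% intervals that include 0.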
